A study of Saccharomyces cerevisiae with 36 samples.

Results

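Loss of Xrn1 was examined in S288C, the reference laboratory background of budding yeast, by comparing 2 rRNA-depleted RNA-seq libraries of the xrn1D strain YAM6 (xrn1_S288C) with 2 of the wild-type strain YAM1 (WT_S288C). The members are the 9765 annotated features of the deposited density table, of which 9217 lie off chromosome 11 and 548 on it. Chromosome 11 is described apart throughout, because the whole chromosome was raised in this mutant. These are 4 of the 36 samples of the series. Used beside them were a second pair of YAM1 wild-type libraries sequenced with the upf1 mutant (WT_UPF1) and the wild-type and xrn1 pairs of W303 (YAM92, YAM97), of the SK1 haploid (YAM1977, YAM2087) and of the SK1 diploid (YAM2067 and the homozygous deletion YAM2068, called SK1_2n). The fit that sets the spread also held the upf1D strain YAM202, YAM1 at 37C and the decapping mutant dcp2-7 (YAM2283) at 37C, all in the S288C background, in pairs of libraries. RNA of YAM1 and YAM6, and of both 37C groups, digested with Terminator, an exonuclease that removes RNAs with a 5' monophosphate, was sequenced as well. Each background has 1 deletion strain, so an effect of the deletion and a peculiarity of that strain cannot be told apart. The sources used here do not give the temperature, medium or mating type of the S288C strains.

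Xrn1 is the main enzyme that digests decapped RNA in the cytoplasm, starting at the 5' end, and decapping followed by this digestion is the chief route of mRNA turnover in yeast. It also degrades many cytoplasmic long non-coding RNAs (lncRNAs). In this annotation XUTs are lncRNAs defined by their sensitivity to Xrn1, CUTs are cryptic transcripts that the nuclear exosome removes, and SUTs are stable unannotated transcripts. That XUTs rise without Xrn1 is therefore how the class was defined and not a finding here.

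Reads on features numbered 24385661 and 50120229 in the wild-type libraries and 66455689 and 56191814 in the xrn1 libraries. A level is the deposited density, that is reads per nucleotide times 1 factor per library that makes the summed snoRNA signal equal in all libraries. A change is log2 of the xrn1 over the wild-type density after a pseudocount of 0.00577 was added, so it understates the change of features near that value. Tests are limma's, two-sided, with Benjamini-Hochberg adjustment over all 9712 features tested, and a feature is called at adjusted p under 0.05. Since nearly all mRNAs moved together, a second scale sets each library to the median log2 level of its mRNAs off chromosome 11. This lowers every change by about the same amount: the median change of these mRNAs was 1.54 on the snoRNA scale and -0.18 on the second scale. The respiration gene QCR10, at 1.72 on the snoRNA scale, lies at -0.0017 on the second. Below, higher or lower than the median mRNA means called with a positive or negative change on the second scale. An mRNA can thus be called lower although it rose by about the median change, as QCR8 did (1.59 and -0.13). In bulk RNA, more RNA of 1 kind per cell and more cells that carry it cannot be told apart, nor can a rise of all mRNAs and a fall of snoRNAs.

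XRN1 itself (7:175527-180113, minus strand) held 16568 and 33382 reads in the wild-type libraries and 49 and 55 in the xrn1 libraries. Its density was 1.62 and 1.57 in wild type and 0.00309 and 0.00399 in the mutant. The xrn1 libraries lay far below both wild-type libraries, as their labels state. The a-cell genes STE2, the receptor for alpha factor (4.66 and 4.85), and MFA2, an a-factor precursor (12.2 and 13.3), were at high density in the wild-type libraries. The alpha-cell genes MF(ALPHA)1 (0.00180 and 0.00391), which encodes alpha factor, and STE3, the a-factor receptor (0.0140 and 0.0121), were near the pseudocount. In the xrn1 libraries STE2 was at 13.1 and 12.5 and MF(ALPHA)1 at 0.00871 and 0.00601, so STE2 was high and MF(ALPHA)1 low in both strains. Not every gene of this kind followed. SAG1, an alpha-cell gene, rose by 3.60 in xrn1, and ASG7, an a-cell gene, changed by -0.73.

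Relative to snoRNAs, almost the whole transcriptome was higher without Xrn1. Of all features tested 91.6% were called higher and 0.927% lower. Off chromosome 11, 5151 of 5449 mRNAs rose (94.5%) and 15 fell (0.275%), and the interquartile range of the mRNA changes was 1.03 to 2.00. Among lncRNAs off chromosome 11 the median change was 2.13 for 1693 XUTs, 2.24 for 781 SUTs and 1.38 for 872 CUTs. The 282 tRNA genes off chromosome 11 had a median of 0.22 with 72 that rose and 21 that fell, and the 72 snoRNAs there, which set the scale, had a median of -0.00. SCR1, the RNA of the signal recognition particle, was at 700.1 and 784 in wild type and at 811 and 690.3 in xrn1, so the groups overlapped. TLC1, the telomerase RNA, rose by 0.29 (adjusted p = 0.0234), LSR1, the U2 spliceosomal RNA, by 0.35 (adjusted p = 0.00102) and RPR1, the RNase P RNA, by 0.40 (adjusted p = 9.88e-05). On the mRNA-median scale these 3 RNAs and SCR1 have negative changes, as their snoRNA-scale changes are under 1.72.

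**Figure D1:**
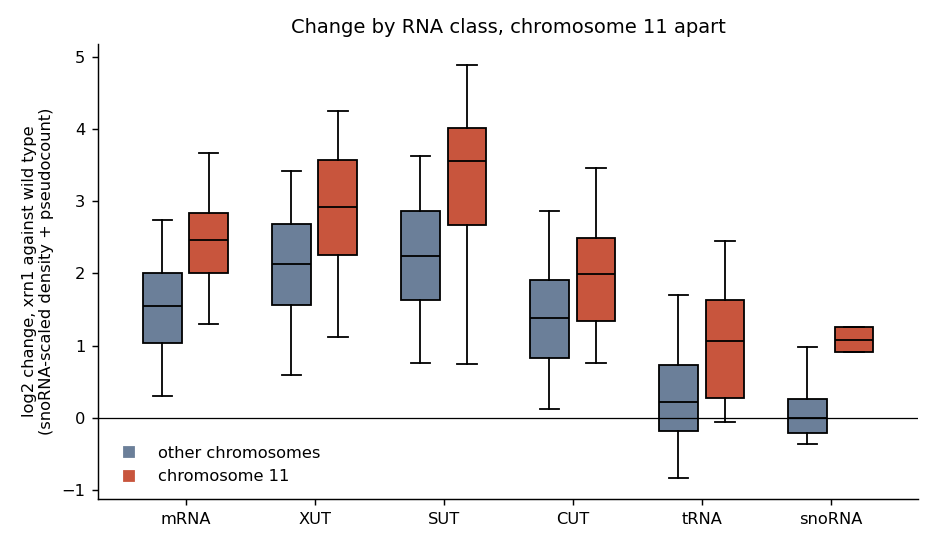
Log2 change in xrn1 against wild type S288C on the snoRNA scale for each RNA class, with chromosome 11 (red) beside the other chromosomes (grey). Boxes span the interquartile range of the features with the median as a line, and whiskers reach the 5th and 95th percentiles. Every class lies higher on chromosome 11, where the mRNA median is 2.46 against 1.54 elsewhere.

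The size of the rise depended on the wild-type libraries chosen. The WT_UPF1 pair, of the same strain YAM1, had a median mRNA change of -0.55 against WT_S288C on the snoRNA scale, and against it the median mRNA off chromosome 11 rose by 2.14 in the mutant. Changes smaller than this on the snoRNA scale are within the difference between the wild-type pairs. What set the cultures of these pairs apart is not stated in those sources.

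Abundant mRNAs changed least. When the mRNAs off chromosome 11 were split into 4 groups of equal size by their level in the WT_UPF1 libraries, which are not part of the contrast, the median changes from the lowest to the highest group were 1.85, 1.80, 1.49 and 0.89. In the highest group 72 of 1362 mRNAs were called higher on the second scale and 1129 lower, whereas in the lowest group 541 of 1363 were higher and 316 lower. Across all mRNAs off chromosome 11 these shares were 27.1% higher (1476) and 46.3% lower (2522). The median change is -0.18 on that scale, so these counts are not balanced around the median change. A trimmed-mean (TMM-like) centring of the same libraries gave 2049 higher and 2026 lower. Within the highest group, 131 ribosomal protein mRNAs had a median change of 0.33 and the other 1231 mRNAs one of 0.96. The ribosomal protein mRNAs were also the more abundant set there, with a median density of 9.60 against 0.967. mRNA length made little difference, since the medians of 4 groups by length lay between 1.48 and 1.64. Among genes that do not encode ribosomal proteins, the 188 with an intron had a median of 1.35 and the 5129 without one had 1.57. For ribosomal protein genes the median was 0.33 with an intron (84 genes) and 0.32 without (48 genes).

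Chromosome 11 was raised from end to end. Its 311 mRNAs had a median change of 2.46, of which 310 rose and none fell, and its 214 lncRNAs one of 2.82, of which 208 rose. The difference between the median chromosome 11 mRNA and the median of all other mRNAs was 0.93 in xrn1_S288C replicate 1 and 0.91 in replicate 2, or 1.91-fold and 1.88-fold. In the Terminator-treated xrn1_S288C libraries it was 0.93 and 0.92. The 28 libraries that are not of the strain YAM6 lay between -0.07 and 0.06, so the groups did not overlap. In the same contrast the other 15 nuclear chromosomes lay between -0.20 (chromosome 6) and 0.01 (chromosome 13) of the rest.

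**Figure D2:**
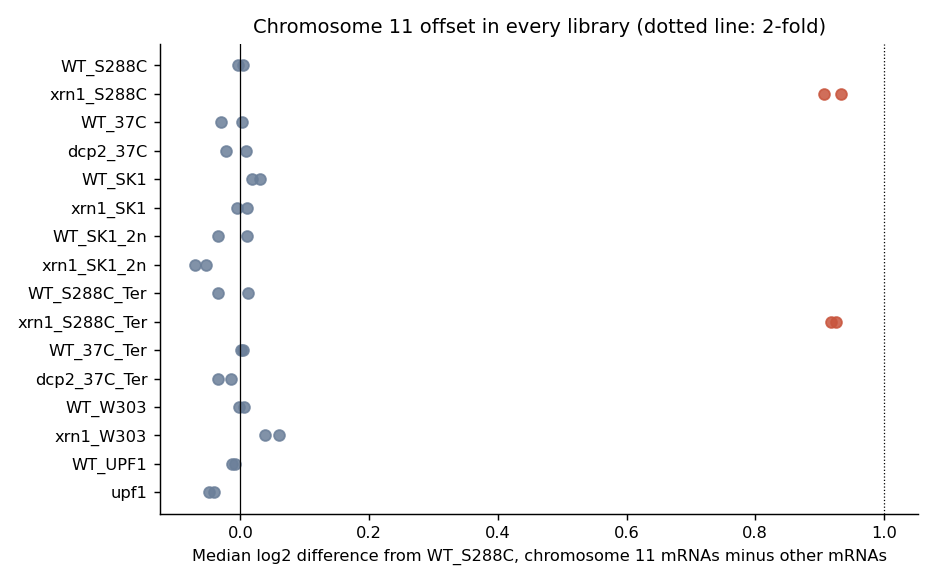
Chromosome 11 offset in each of the 32 RNA-seq libraries: the median log2 difference from WT_S288C of chromosome 11 mRNAs minus that of all other mRNAs. Each point is a library, and the 4 libraries of YAM6 (red) lie between 0.91 and 0.93 while all others lie near 0.

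The offset was present along the whole chromosome and at every level of expression. In windows of 50 kb along the chromosome it ranged from 0.71 to 1.14, apart from the last window, where 3 mRNAs gave 2.52. In the 4 groups by level it was 1.07, 0.90, 0.95 and 1.05 from lowest to highest. Of the 311 mRNAs 282 lay above the median of the other chromosomes, or 90.7%. Small RNAs were raised there too. All 5 snoRNAs of chromosome 11 rose, against 16 of 72 elsewhere: snR64 by 0.91, snR38 by 1.26, snR69 by 0.77, snR87 by 1.47 and snR42 by 1.08. The density of snR42 was 51.1 and 53.3 in wild type and 108 and 113 in xrn1, and that of snR38 was 55.4 and 50.8 against 127 and 128. These 5 genes made up 2.37% and 2.39% of the snoRNA signal in the wild-type libraries and 5.06% and 5.24% in the mutant. They are part of the deposited scaling. On the mRNA-median scale 4 of the 5 snoRNAs were lower than the median mRNA, as snoRNAs elsewhere were. The median tRNA gene of chromosome 11 changed by 1.06 against 0.22 elsewhere, with 8 of 16 called higher. The number of copies of chromosome 11 in YAM6 was not measured in the RNA libraries, and its part in these values was not tested. Every change given below for a chromosome 11 feature includes this offset.

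Off chromosome 11 the highest-ranking mRNA rises were those of SNO1 and SNZ1, which encode the subunits of the enzyme that makes vitamin B6. SNO1 (13:457285-457959, minus strand) had densities of 0.00599 and 0.00384 in wild type, from 9 and 12 reads, and of 1.51 and 1.66 in xrn1, from 3524 and 3361 reads. SNZ1 (13:458408-459301, plus strand) went from 0.118 and 0.114 to 5.87 and 6.24. Neither gene's groups overlapped, and the changes were 7.22 (SE 0.223) and 5.63 (SE 0.196). Both WT_UPF1 libraries resembled WT_S288C, with SNZ1 at 0.135 and 0.116. The paralogous pairs did not follow: SNO2 and SNO3 rose by 1.53 and 1.48, near the median mRNA, and SNZ2 and SNZ3 changed by 0.36 and 0.07 without passing the test. These paralogs share sequence, so their reads may be split between copies.

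The 2 genes point away from each other across 448 bases. The stretch between them that lies at least 101 bases from either start codon is shown because it lies in the upstream windows of both genes. It is 13:458060-458307 of the RefSeq genome R64, plus strand, with capitals for TGACTC, the core that the amino acid starvation factor Gcn4 recognises, on either strand. It holds 3 such matches.
SNO1-SNZ1: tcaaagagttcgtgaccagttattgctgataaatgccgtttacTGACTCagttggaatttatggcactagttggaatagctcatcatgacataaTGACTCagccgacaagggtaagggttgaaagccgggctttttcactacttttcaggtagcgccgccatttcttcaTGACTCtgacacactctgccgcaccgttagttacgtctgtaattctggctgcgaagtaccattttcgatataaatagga

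The next mRNAs in rank were MPC3, a subunit of the mitochondrial pyruvate carrier (4.79), and HSP12, a small membrane-protecting protein induced by stress (4.76). HSP12 (6:107256-107585, plus strand) was at 0.0381 and 0.0609 in wild type, from 28 and 93 reads, and at 1.47 and 1.45 in xrn1. CUT122 (6:106927-107215) ends 40 bases before the HSP12 start codon on the same strand, and went from 0.0109 and 0.0150 to 0.422 and 0.397, a rise of 4.48. The features CUT122 and HSP12 thus rose by similar amounts, and all 4 wild-type values of the pair lay under the xrn1 values. The HSP12 feature begins at the start codon, so any HSP12 mRNA that reaches into CUT122 is counted as CUT122. Whether the CUT122 reads come from an RNA separate from the HSP12 mRNA was not tested. The window from 400 to 101 bases before the HSP12 start codon is shown because CUT122 covers 229 of its bases. It is 6:106856-107155 of R64, plus strand, with capitals for AGGGG, the stress response element of Msn2 and Msn4, on either strand. There are 3 matches.
HSP12 upstream: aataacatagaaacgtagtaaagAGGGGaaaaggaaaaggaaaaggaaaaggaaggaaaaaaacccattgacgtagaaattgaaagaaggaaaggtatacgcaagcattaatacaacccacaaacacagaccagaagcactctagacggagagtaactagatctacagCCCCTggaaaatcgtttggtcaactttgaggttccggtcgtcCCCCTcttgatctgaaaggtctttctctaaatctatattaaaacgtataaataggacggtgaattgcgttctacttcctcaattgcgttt

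Among the 12 named mRNAs with the highest-ranking rises, 10 have gene coordinates that allow the same 300-base window to be read. AGGGG occurs in 5 of these windows (MPC3, HSP12, RTS3, TMA10 and GCY1) and in 23.9% of 5737 windows of yeast genes. TGACTC occurs in 4 (SNO1, SNZ1, RTS3 and ODC2) and in 8.66%, and AGGGAT, the core of the element of the nutrient factor Gis1, in 0 against 9.87%. The SNO1 and SNZ1 windows overlap, so they are not separate examples. A match of letters is a description and shows no binding.

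The other 8 named rises lay between 4.54 and 3.82. ATG41, an autophagy protein, went from densities of 0.217 and 0.225 to 5.22 and 5.34 and rose by 4.54. RTS3, a likely phosphatase subunit, rose by 4.44, YJL213W, of unknown role, by 4.35, and TMA10, a ribosome-associated protein, by 4.33. ODC2, a mitochondrial oxodicarboxylate carrier, reached 7.15 and 7.33 from 0.445 and 0.413 and rose by 4.06 (SE 0.112). GCY1, a glycerol dehydrogenase, rose by 3.94. The neighbours YFL057C and AAD6, parts of an aryl-alcohol dehydrogenase family with close copies in the genome, rose by 3.88 and 3.82. The naming rule required that both xrn1 libraries lie above both WT_S288C libraries, which 5326 of 5449 mRNAs off chromosome 11 did. For the 12 genes they also lay above both WT_UPF1 libraries.

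Few mRNAs were lower. Of the 15 that fell, XRN1 is the deleted gene, and 4 met the level needed to be named. DDR48, a stress protein, was at 1.06 and 0.976 in wild type and at 0.434 and 0.420 in xrn1, a fall of 1.24 (adjusted p = 1.03e-05). The WT_UPF1 libraries held 0.352 and 0.438 for this gene, so against them the change was 0.12 and did not pass the test. ADH1, the main alcohol dehydrogenase of fermentation, was at 106 and 105 against 77.5 and 81.1 and decreased by 0.41 (adjusted p = 0.00524). In the WT_UPF1 libraries it was at 79.1 and 84.6, which overlap the xrn1 values, and the change of -0.04 against them did not pass the test (adjusted p = 0.738). IPP1, the cytoplasmic pyrophosphatase, decreased by 0.35 and SCP160, an RNA-binding protein at the polysomes, by 0.33. With the WT_UPF1 libraries as controls IPP1 and SCP160 rose instead, by 0.58 and 0.43.

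HO, the mating-type switching endonuclease, fell by 2.04 (SE 0.133, adjusted p = 1.50e-12) and was chosen from the mating list. Its density was 0.374 and 0.346 in WT_S288C, 0.133 and 0.150 in WT_UPF1, and 0.0829 and 0.0835 in xrn1, so both xrn1 libraries were the lowest of the 6. In the other backgrounds HO went up with the deletion, by 1.10 in W303, 1.79 in SK1 and 2.38 in SK1_2n. The remaining falls, named after their values were seen, were TIR1 (-1.44), FCY21 (-1.27), ANB1 (-0.99), FIG1 (-0.98), ASG7 (-0.73), PRM2 (-0.58), BNA5 (-0.57), DCG1 (-0.53) and HUG1 (-0.45). FIG1 and PRM2, whose densities were near the pseudocount, are induced in mating, ASG7 is an a-cell gene, and TIR1 and ANB1 are genes of low-oxygen growth. Against WT_UPF1 the lowest change in the mating list, which holds HO and ASG7, was -0.72, and 1 member was called lower. In the cell wall list, which holds TIR1, the lowest change against WT_UPF1 was -0.52.

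**Figure D3:**
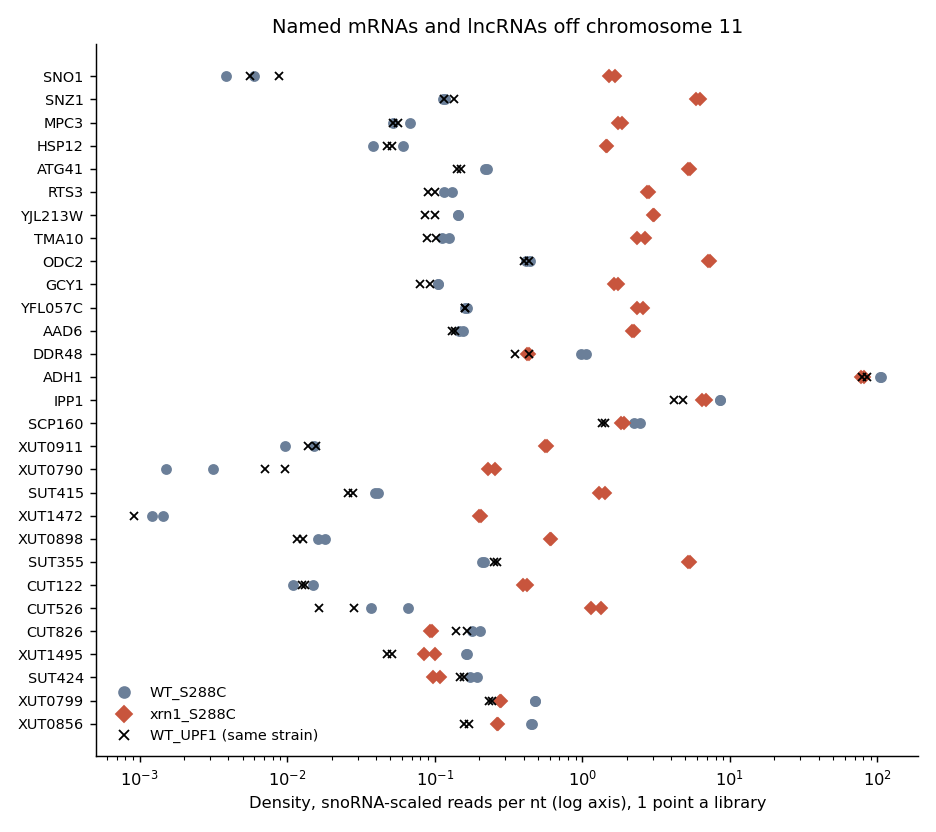
Density of the named mRNAs and lncRNAs off chromosome 11 in each library on a log axis, with WT_S288C as circles, xrn1_S288C as diamonds and the second wild-type pair WT_UPF1 as crosses; XUT1472 is at 0 in a WT_UPF1 library, which a log axis cannot show. For the rises the xrn1 values stand clear of all 4 wild-type values, whereas for the named XUT falls the crosses lie below the xrn1 values and for DDR48 and ADH1 they overlap them.

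On chromosome 11 the leading mRNAs were KDX1, PIR3, SRL3, FRE2 and OAR1. KDX1 (11:149386-150687, minus strand), a kinase of the cell wall integrity pathway, was at 0.0476 and 0.0522 in wild type and 2.31 and 2.28 in xrn1, a rise of 5.37. PIR3 (11:144401-145378, plus strand), a wall glycoprotein, rose by 5.22, from 0.0455 and 0.0354 to 1.72 and 1.69. SRL3, a cell cycle gene product, rose by 4.94, FRE2, a cell surface iron reductase, by 4.88, and OAR1, an enzyme of mitochondrial fatty acid synthesis, by 3.79. The offset of 0.92 is included in each of these rises, the smallest of which is 3.79. XUT0575 (11:150730-152948, plus strand) begins next to the 5' end of KDX1 and runs the other way. It rose by 5.56, and SUT229, which lies inside it and shares its reads, by 5.63. CUT229, opposite the vacuolar peptidase gene APE1, rose by 5.09. The 5 tested genes of the cell wall list that lie on chromosome 11 had a median change of 3.12, and 4 of them were above the median mRNA on the second scale, as were 242 of all 311 mRNAs of the chromosome, so the count is near that background.

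The lncRNAs off chromosome 11 were measured from lower levels than the mRNAs. XUTs lying opposite an mRNA over 200 bases or more had a median density of 0.0178 in wild type and 0.0966 in xrn1, with a median change of 2.19 for 942 of them. The 638 XUTs with no mRNA opposite had a median change of 2.06. XUT0911 (16:697549-698465, plus strand), which runs opposite YPR078C, was at 0.0152 and 0.00967 in wild type and at 0.573 and 0.555 in xrn1, a rise of 4.99. XUT1472 (12:117904-119149, minus strand), which lies wholly opposite the vacuolar transporter gene BPT1, rose by 4.88, from 0.00144 and 0.00121 to 0.207 and 0.200. Its xrn1 density in W303 was 0.0276 and 0.0217. XUT0790 rose by 4.95, SUT355 by 4.60 and CUT526 by 4.48. XUT0898 (4.75) and SUT415 (4.89) overlap on the same strand and share reads. XUT0898 runs opposite HAL1, a gene for salt tolerance, and HAL1 rose as well, by 2.60.

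The changes of antisense lncRNAs and of the mRNAs opposite them were not correlated in this contrast. Over 1721 pairs that overlap by at least 200 bases, Pearson's correlation of the 2 changes was -0.0039 and Spearman's was -0.0078, across pairs that share libraries and the scaling factor. The lncRNA had the larger change in 1054 pairs. The lncRNA was the more abundant of the pair in 269 pairs in wild type (15.6%) and in 324 in xrn1 (18.8%). mRNAs with such an lncRNA opposite had a median change of 1.65 (1272 genes) and those with none one of 1.50 (3957 genes). The interquartile ranges overlapped (1.13 to 2.12 against 1.00 to 1.96), and the 2 sets were not matched for level.

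For a pair of lncRNAs whose transcription is known to repress the neighbouring gene, looked up after their values were seen, RNA and gene were both higher. So were 94.5% of mRNAs and 3113 of 3346 lncRNAs off chromosome 11, with median changes of 1.54 and 1.96, so the direction is that of nearly every feature. SRG1 (5:322212-322762, plus strand), which is transcribed across the SER3 promoter and represses this serine biosynthesis gene, rose by 2.97, from 1.04 and 0.944 to 7.88 and 7.76. SER3 rose by 3.67, from 0.300 and 0.300 to 3.88 and 3.88, and the 2 annotations overlap by a few bases on the same strand. ICR1, which runs across the promoter of the flocculin gene FLO11, rose by 2.97, from 0.0772 and 0.0707 to 0.621 and 0.614. FLO11 rose by 2.46 from 0.00865 and 0.00617, close to the pseudocount, to 0.0704 and 0.0621.

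The lncRNA falls were led by CUT826 (15:158918-159462, minus strand), which lies just downstream of ADH1 on the same strand and decreased by 0.97, from 0.201 and 0.180 to 0.0929 and 0.0958. In the WT_UPF1 libraries it was at 0.138 and 0.166, again above both xrn1 values. SUT424 decreased by 0.79. XUT1495, opposite the translation elongation factor gene YEF3, decreased by 0.80, but rose by 0.82 against the WT_UPF1 libraries. The last named XUTs that fell, XUT0799 (-0.76) and XUT0856 (-0.75), both lie in Ty1 elements.

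Ty elements are the retrotransposons of yeast, which are copied through an RNA that covers nearly the whole element. Of the 28 XUTs off chromosome 11 that fell, 22 lie inside a full-length element on its own strand, that is, they are the sense RNA of the element by annotation. All 22 belong to Ty1. The 31 sense XUTs of Ty1 that are longer than 3000 bases had a median change of -0.54, with 22 that fell, none that rose and a range from -0.76 to 0.19. Their median density was 0.430 and 0.429 in wild type and 0.283 and 0.291 in xrn1. The 13 sense XUTs of Ty2, a closely related family, all rose, with a median of 1.12 and medians of 0.105 and 0.102 against 0.255 and 0.247. The 2 families did not overlap, as the lowest Ty2 change was 0.88. Of Ty4 there were 2 sense XUTs, with a median of 2.60.

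The fall of Ty1 sense RNA depended on the wild-type pair. In the Terminator-treated libraries, which entered no test, the median Ty1 sense density was 0.207 and 0.226 in wild type and 0.155 and 0.163 in xrn1, so both xrn1 values were the lower ones there as well. Against WT_UPF1, in which the median Ty1 sense density was 0.180 and 0.189, 30 of the 31 rose on the snoRNA scale, with a median of 0.64. Relative to the median mRNA all 31 were lower against either wild-type pair, with a median of -2.26 against WT_S288C and -1.73 against WT_UPF1. The 13 Ty2 sense XUTs had medians of -0.60 and -0.52 on that scale, with 10 called lower against either pair. Short XUTs on the strand opposite Ty1 (31 of 229 to 508 bases) all rose on the snoRNA scale, with a median of 2.06, and 8 opposite Ty2 rose with a median of 2.04. Relative to the median mRNA the 31 had a median of 0.34 against WT_S288C and of -0.46 against WT_UPF1. Their wild-type densities were under the pseudocount for Ty1 (medians 0.00333 and 0.00321) and reached 0.0314 and 0.0277 in xrn1. The copies of a family are nearly identical and how reads were divided among them is not stated, so the 31 values are not independent. In W303 the Ty1 sense median was -0.58. In SK1 and SK1_2n it was 1.45 and 1.23, at far lower levels: XUT0856 was at 0.00287 and 0.00249 in wild-type SK1 and at 0.458 and 0.449 in WT_S288C.

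**Figure D4:**
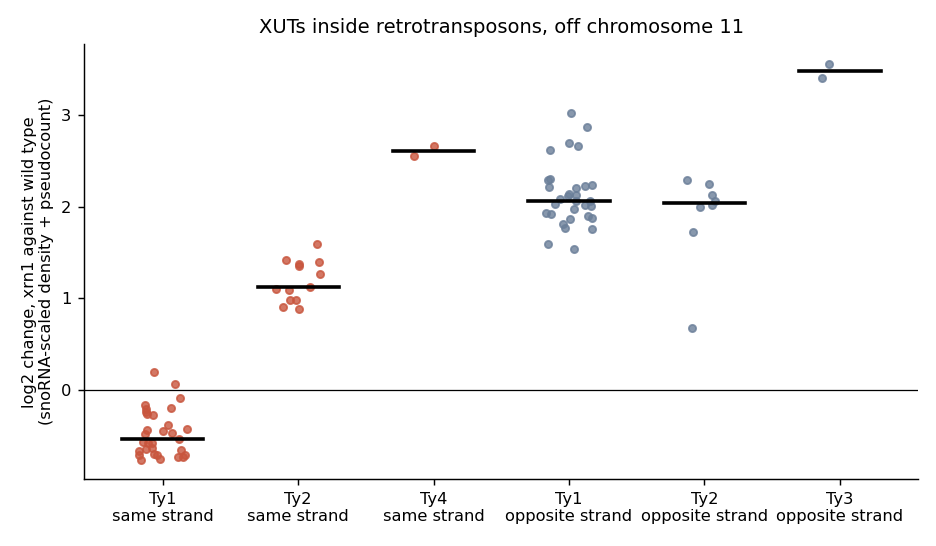
Log2 change on the snoRNA scale of the XUTs inside full-length Ty elements off chromosome 11, by family and by strand relative to the element; each point is an XUT and each bar a median. Ty1 sense XUTs lie from -0.76 to 0.19, and every other set lies above 0.

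Gene groups were compared on the mRNA-median scale, on which 27.1% of mRNAs off chromosome 11 were called higher and 46.3% lower, and each list is counted off chromosome 11. The median mRNA change is -0.18 on this scale, so a list near that change can have more members lower than higher. Genes of translation and of fermentation were the lowest. Of 54 small-subunit ribosomal protein mRNAs 51 were lower and 1 was higher, with a median change of 0.32 on the snoRNA scale, and of 78 large-subunit mRNAs 77 were lower and 1 was higher, with 0.36. On the snoRNA scale 33 of the 54 and 51 of the 78 rose and none fell. RPS1B, whose change of 0.0045 was below its list median, was at 40.2 and 39.5 in wild type and 39.8 and 40.2 in xrn1. RPL7A was at 9.78 and 10.2 against 10.2 and 10.1. The members called higher than the median mRNA were RPL22B and RPS14B. RPL22B went from 1.38 to 8.68 in mean density and rose by 2.65 on the snoRNA scale, and RPS14B rose by 1.86. The splicing of each is known to be repressed by its own protein. Of 32 ribosome biogenesis genes 28 were lower and none was higher. On the snoRNA scale 29 of the 32 rose, with a median of 0.79. RRP5, a factor of rRNA processing with the lowest change of the list, was at 1.76 and 1.66 against 1.75 and 1.70.

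Glycolysis and fermentation had 15 of 17 members lower and a median of 0.10 on the snoRNA scale. TDH3, the glyceraldehyde-3-phosphate dehydrogenase, was at 238 and 245 in wild type and 232 and 217 in xrn1, a difference of -0.11 that did not pass the test. PDC1, pyruvate decarboxylase, and CDC19, pyruvate kinase, differed by -0.07 and -0.14, also without a call. The member called higher was HXK1, a hexokinase used when glucose is scarce. Amino acid biosynthesis had 32 of 41 lower and 3 higher. MET17, counted among the 32, was near or under the pseudocount, where the shift to the second scale by itself places a feature low. The genes for chaperones had 18 of 24 lower and 1 higher, or 15 lower and 4 higher against WT_UPF1. On the snoRNA scale 20 of the 24 chaperone genes rose, with a median of 0.88. The translation-coupled chaperone SSB1, with the lowest change of that list, was at 27.3 and 26.0 against 27.4 and 26.5. All 10 histone genes and all 8 mitochondrially encoded protein genes were lower than the median mRNA. The histone gene HTA2 still rose on the snoRNA scale, by 0.58. With WT_UPF1 as controls 7 histone genes were lower and 1 was higher.

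Genes of the decay machinery divided. Of the 23 decapping and 5'-to-3' decay genes 14 were lower, the deleted gene included, and 6 were higher. On the snoRNA scale 21 of the 23 rose. SBP1, a translation repressor with a change of only 0.06 on that scale, had 3.34 and 3.25 in wild type and 3.48 and 3.40 in xrn1. PAB1, the poly(A)-binding protein, was at 6.58 and 6.36 against 5.80 and 5.46, a difference of -0.20 on the snoRNA scale that did not pass the test. On that scale 10 of 11 deadenylation genes rose, but 7 were lower and 1 was higher than the median mRNA (4 with TMM-like centring). The higher one was MOT2, a subunit of the Ccr4-Not complex, which rose from 0.204 and 0.214 to 1.20 and 1.20. In the exosome list 9 of 22 were lower and 3 higher, with MTR4, a nuclear exosome helicase, at -1.09. RNA polymerase II subunits had 10 of 12 lower and none higher, or 8 lower and 3 higher against WT_UPF1. RPO21, its large subunit, went from 1.71 and 1.47 to 2.52 and 2.38, a rise of 0.63 on the snoRNA scale.

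Targets of nonsense-mediated decay (NMD), in which RNAs with an early stop codon are decapped and then digested by Xrn1, were the list with the highest median. Of 14 reported targets 13 were higher and none was lower, with a median of 2.80 on the snoRNA scale. DAL7, a malate synthase used in nitrogen scarcity, rose by 3.80, from 0.0782 and 0.0781 to 1.19 and 1.15. STN1 and TEN1, which cap telomeres, rose by 3.48 and 3.27, and YRA1, an mRNA export factor whose unspliced RNA is degraded in the cytoplasm, from 1.74 and 1.71 to 14.4 and 14.5. YRA1 is counted in the Edc3 list below as well, and DAL2 and DAL7 in the nitrogen catabolite list, so these genes are not particular to the NMD list. That nitrogen list had 8 of 21 members higher and 8 lower. Of the 5 NMD factors 3 were higher. NMD4 rose by 2.75, EBS1 by 2.23 and UPF3 by 1.95, while NAM7, which encodes Upf1, rose by 1.64, at the median mRNA. The telomere list had 7 of 12 higher and 3 lower and shares EST1, EST2, EST3, STN1 and TEN1 with the NMD targets. EST2, the telomerase catalytic subunit, rose by 2.99 and RAP1, which binds telomeric repeats, by 0.74.

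Stress and iron genes depended on the wild-type pair. The general stress list had 17 of 36 higher and 6 lower against WT_S288C, and 10 higher and 12 lower against WT_UPF1. HSP12, TMA10 and the aldehyde dehydrogenase gene ALD3 (2.86) were among those higher, and DDR48 was the lowest. The iron regulon had 12 of 22 higher and 7 lower against WT_S288C, but 3 higher and 17 lower against WT_UPF1. Its gene ARN2, a siderophore transporter, was at 0.154 and 0.161 in WT_S288C, 1.18 and 1.12 in xrn1, and 1.06 and 1.14 in WT_UPF1, so the second wild-type pair overlapped the mutant. FRE3, an iron reductase, rose by 3.75, from 0.0797 and 0.0801 to 1.17 and 1.12, with 0.131 and 0.138 in WT_UPF1. HMX1, heme oxygenase, rose by 2.89 and FIT3, a cell wall mannoprotein that holds iron, by 3.54.

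The remaining lists had members in both directions, and for several the larger side depended on the scaling. With TMM-like centring the exosome list had 9 higher and 6 lower, the cell wall list 10 and 9 and the nitrogen list 11 and 5, and against WT_UPF1 the glucose-repressed list had 3 and 15. Nitrogen catabolite genes had 8 higher and 8 lower of 21, with DAL5 at 3.32 and GDH2 at 2.84 among the rises on the snoRNA scale. Phosphate genes had 5 higher and 11 lower of 20, with the glycerophosphoinositol carrier GIT1 highest at 3.60 and the polyphosphate subunit VTC1 at 0.82. In carbon metabolism repressed by glucose 4 of 23 were higher and 8 lower, with galactokinase GAL1 at 2.98, and of 39 genes of the TCA cycle and respiration 2 were higher and 26 lower, with fumarase FUM1 at 0.26. Against WT_UPF1 the counts of this respiration list were 12 higher and 16 lower. The vitamin B6 and thiamine list had 7 of 17 higher and 6 lower. Cell cycle genes had 13 of 25 higher and 5 lower: the G1 cyclin PCL1 rose by 3.40, from 0.419 and 0.455 to 4.75 and 4.61, and the ribonucleotide reductase genes RNR2 and RNR4 differed by 0.23 and 0.21 without a call. Meiosis genes had 8 of 27 higher and 12 lower, with the kinase IME2 at 3.40 and RIM4 at 3.20. Cell wall genes had 7 higher and 10 lower of 24, with the glucan synthase FKS1 at 0.79. Mating genes had 1 higher and 9 lower of 20, and the higher one was SAG1, the alpha-cell agglutinin, which rose by 3.60, from 0.102 and 0.0991 to 1.34 and 1.23. Of the strain marker genes 6 of 8 were lower. URA3, LEU2 and MET17 were near or under the pseudocount in all 4 libraries, so their values carry no change. The Edc3 list holds YRA1 and RPS28B, of which RPS28B, at 1.51, was near the median mRNA.

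**Figure D5:**
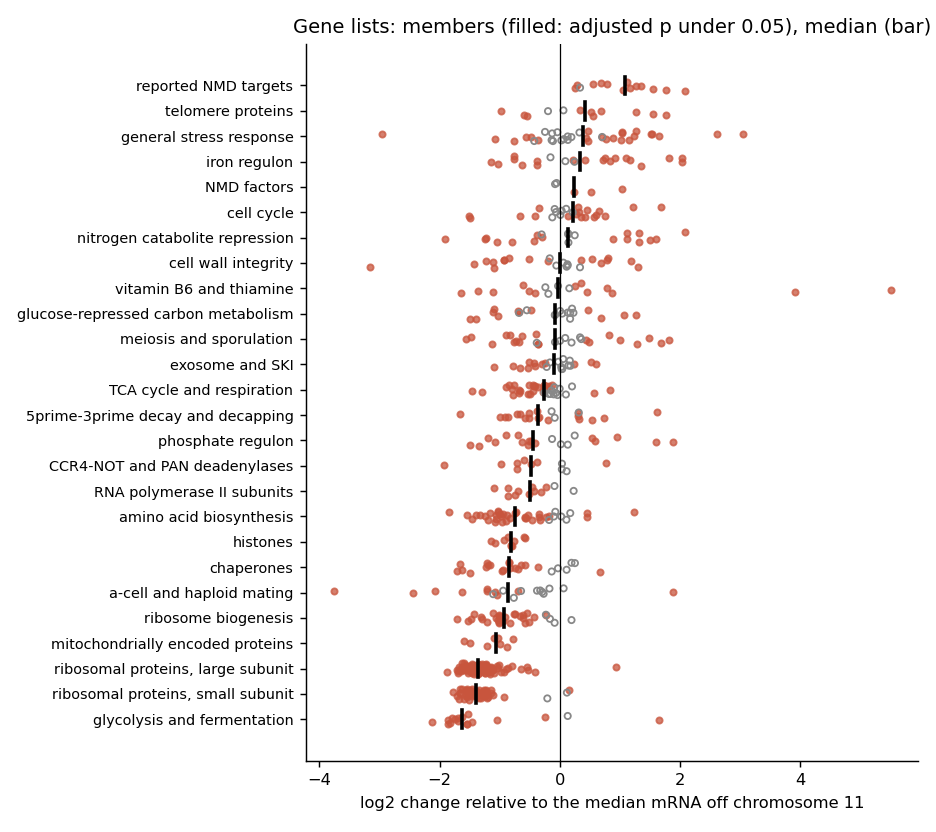
Log2 change of each list's members off chromosome 11 relative to the median mRNA, with a bar at the list median; members with adjusted p under 0.05 are filled, and XRN1 itself is left out of the points. Reported NMD targets have the highest median and glycolysis, with the ribosomal protein lists, the lowest.

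Most of the pattern relative to the median mRNA was shared with the other deletion strains, which share no library with S288C. Among all 5449 mRNAs tested off chromosome 11, 1582 were called higher in W303, 1669 in SK1 and 1533 in SK1_2n. Called lower were 2539, 2546 and 2928, and the overlaps below stand against these counts. Of the 1476 mRNAs off chromosome 11 that were higher in S288C, 1219 (82.6%) were also higher in W303, which is 77.1% of the W303 calls. In SK1 the shared number was 1026 (69.5% and 61.5%) and in SK1_2n 951 (64.4% and 62.0%). In all 4 backgrounds 750 were higher. Of the 2522 lower mRNAs 2204 were lower in W303 (87.4% and 86.8%), 1918 in SK1 (76.1% and 75.3%) and 2035 in SK1_2n (80.7% and 69.5%), and 1631 in all 4. Of the higher and of the lower mRNAs, 29 and 31 were called the opposite way in W303, 170 and 192 in SK1, and 287 and 153 in SK1_2n.

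Tested directly on the mRNA-median scale, the change off chromosome 11 was higher in S288C than in W303 for 479 mRNAs (8.79%) and lower for 475 (8.72%). Against SK1 these were 1248 (22.9%) and 1515 (27.8%), and against SK1_2n 2215 (40.6%) and 1279 (23.5%). These counts depend on the scale: on the snoRNA scale 71 were higher and 1677 lower against W303, 826 and 772 against SK1, and 167 and 4787 against SK1_2n, so the larger side changed for each background. On chromosome 11 the change was higher in S288C than in W303 for 279 of 311 mRNAs, than in SK1 for 262 and than in SK1_2n for 287. On the mRNA-median scale the SNZ1 change was above that in W303 by 2.92. The density of SNZ1 in W303 was 1.07 and 1.23 in xrn1 and 0.123 and 0.128 in wild type. In SK1_2n SNZ1 was at 1.45 and 0.849 in wild type and 0.666 and 0.640 in the mutant. On the mRNA-median scale its change there was lower by 8.13 than in S288C. That figure includes the median mRNA, which rose by 3.14 in SK1_2n and by 1.54 in S288C on the snoRNA scale. SAG1, which was already at 9.31 and 8.06 in wild-type SK1, lay above SK1 by 3.76. The adenine genes ADE2 (-3.24) and ADE17 (-2.99) rose less in S288C than in W303, where ADE2 went from 0.101 and 0.101 to 3.45 and 3.71. YGP1, a stress-induced cell wall glycoprotein, rose less than in SK1, by 3.54 on the log2 scale, and reached 7.63 and 7.61 there against 1.26 and 1.12 in xrn1_S288C.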

How the data were processed

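Strand-specific total RNA was sequenced in paired ends after rRNA depletion or Terminator digestion, per the labels' protocols, and the submitters' processing notes name cutadapt, Bowtie and TopHat without versions. The authors deposited a signal per feature and library, named a density. Multiplied by feature length, densities were whole multiples of 1 value per library in 100% of values (tolerance 0.01), and the sum over the 77 snoRNAs is equal in all libraries, so depth and scaling could be read from it. Symbols come from the reference annotation R64, which 5789 of 5798 genes matched by locus tag, 5757 with the same coordinates, and the lncRNA coordinates are those of the deposited table. Sequences were read from the R64 genome of RefSeq.

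Log2(density + 0.00577), the pseudocount being the 5th percentile of the non-zero densities, went into a linear model, limma 3.58.1 under R 4.3.3 (lmFit, eBayes with trend and robust) over all 24 rRNA-depleted libraries, 12 groups of 2, which share 1 estimate of the spread. Features at or above the pseudocount in at least 2 libraries were kept. The fit was tested on simulated data. The series' design text calls the pairs biological replicates, and the replicate numbers do not pair the samples. Named features are XRN1, then, among called features above their class median whose libraries did not overlap, the top 12 mRNAs and 8 lncRNAs by rise (at least 2-fold) and up to 10 and 5 by fall, 5 and 3 on chromosome 11, up to 4 per list by adjusted p, and 4 each way per strain difference. Neighbours, paralogs and non-coding RNAs of known role were added after their values were seen. Members and lists were chosen with earlier results of these data known. RPP1, an RNase P subunit gene that the symbol pattern had taken as ribosomal, was removed after its values were seen. The alternatives were other pseudocounts, filters, scalings and controls, fewer libraries, and limma's voom on the recovered reads. Motifs were counted on both strands, from 400 to 101 bases before start codons. CAGE data were not used here.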

Additional observations from a re-analysis of the deposited data

Results flagged for a closer look

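Some results were picked out because the effect of the deletion differed between S288C and another background in limma's test of the difference itself, on the mRNA-median scale with adjusted p under 0.05. Against W303 the change was larger in S288C for SNZ1 (2.92), IMD2, an IMP dehydrogenase gene (1.62), MCH5, a riboflavin transporter gene (1.52), and MET10, a sulfite reductase gene (1.51). It was smaller for ADE2 (-3.24), ADE17 (-2.99), LEU2 (-2.22) and HIS3 (-2.19). LEU2 had next to no signal in the S288C strains, and the wild-type density of HIS3 was 0.569 and 0.660 in S288C and 0.143 and 0.142 in W303.

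Against SK1 the change was larger for SAG1 (3.76), HPF1 (2.74), PHM6 (2.65) and FLO11 (2.63), and smaller for YGP1 (-3.54), FIT2 (-3.12), HIS4 (-2.85) and YJR015W (-2.56). FLO11 was at 3.00 and 3.59 in wild-type SK1 and at 0.00865 and 0.00617 in WT_S288C. Against SK1_2n the change was larger for SNZ1 (8.13), SAG1 (6.41), PRM5 (3.87) and ODC2 (3.80), and smaller for YJR015W (-2.02), CUP9 (-1.93), PAD1 (-1.88) and STE2 (-1.76). STE2 was at 4.66 and 4.85 in WT_S288C and at 0.0231 and 0.00948 in wild-type SK1_2n.

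The mRNAs of chromosome 11 differed as a whole, with a median difference of 0.94 from W303, 0.90 from SK1 and 1.10 from SK1_2n. The Terminator-treated libraries, which entered no test, showed the same offset of chromosome 11 mRNAs, at 0.89 between the xrn1 and the wild-type pair, where the wild-type Terminator libraries lay at -0.03 and 0.01.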

How the results depend on the processing

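Rescaling to the median mRNA off chromosome 11 changed the counts most: 1476 mRNAs and 1412 lncRNAs off chromosome 11 were then higher and 2522 and 722 lower, and snR64 (-0.81), snR38 (-0.46), snR69 (-0.95), snR87 (-0.25), snR42 (-0.64), TLC1 (-1.43), LSR1 (-1.37), RPR1 (-1.32) and SCR1 (-1.70) changed sign, by the shift itself. With WT_UPF1 as controls 11 lncRNAs in place of 37 fell, and DDR48 (0.12), IPP1 (0.58), SCP160 (0.43), XUT1495 (0.82), XUT0799 (0.22), XUT0856 (0.68) and, relative to the median mRNA, ARN2 (-2.30) reversed. The cause was not tested. A fit of only the 4 S288C libraries called 29 mRNAs lower in place of 15. The chromosome 11 offset, 0.92, was 0.86 in lncRNAs, 0.94 as a mean, 0.89 in Terminator libraries, 0.99 against WT_UPF1 and 0.91 to 0.96 without 1 library. On the snoRNA scale the strain differences of mRNAs off chromosome 11 numbered 71 higher and 1677 lower for W303, 826 and 772 for SK1, and 167 and 4787 for SK1_2n. Without WT_S288C replicate 1 or xrn1_S288C replicate 1 the count higher than W303 fell from 479 to 310 and 308, and without either other library it was 386 and 330. Without 1 library, 5027 to 5069 mRNAs off chromosome 11 rose and 12 to 15 fell. With the replicate number as a block 5143 rose and 15 fell, and 1456 were higher and 2506 lower than the median mRNA, so no count moved by over 1.5 times. Same-numbered libraries did not deviate together (r = -0.058). With TMM-like centring 2049 mRNAs were higher and 2026 lower, a share of calls shifted towards higher. A scaling without the chromosome 11 snoRNAs, chosen after seeing the data, gave 5203 rises and 15 falls. Among single features, 15 alternatives on the snoRNA scale and 1 relative to the median mRNA reversed a change, all given above, and 7 and 11 took one below the threshold. Features near the pseudocount rest on few reads, such as the 9 and 12 of SNO1 in wild type, which limits the precision of their changes.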
